A study of Homo sapiens with 12 samples.

Results

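The Krüppel-like factors (KLFs) are a family of zinc finger transcription factors, and 10 of them were followed here in NUGC-4, an established diffuse gastric cancer cell line labelled wild type. KLF2, KLF3, KLF4, KLF5, KLF6, KLF7, KLF9, KLF10, KLF11 and KLF13 were taken by gene symbol from a table of read counts for 60623 genes, and all 10 were among the 17096 genes that passed the filter on low counts. The 12 RNA-seq libraries form 4 groups of 3. Cells received 1 µM IN10018 plus 1 µM crizotinib (combination), 1 µM crizotinib alone, 1 µM IN10018 alone or neither drug (control), and RNA was taken after 24 h. IN10018 is an inhibitor of focal adhesion kinase (FAK), and crizotinib inhibits the receptor tyrosine kinases ALK, MET and ROS1; the series concerns the joint use of FAK and ROS1 inhibitors in tumours that lack E-cadherin. The labels name no vehicle for the control cells. They leave unsaid whether the 3 libraries of a group are separate cultures, and p-values below therefore measure only the spread between these libraries, which may be technical. All results are from 1 cell line.

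KLF proteins share a DNA-binding domain of zinc fingers at the carboxy terminus, which recognises GC-rich and CACCC sequences also bound by the related SP factors. Their amino-terminal parts differ and set the partners. KLF2, KLF4, KLF5, KLF6 and KLF7 are mostly described as activators that recruit acetyltransferases, KLF3 as a repressor that binds the corepressor CtBP, and KLF9, KLF10, KLF11 and KLF13 as factors that bind the corepressor SIN3A. Several KLF genes are early-response genes whose transcripts turn over quickly, and in the epithelium of the gut KLF5 is known from dividing cells and KLF4 from differentiating ones.

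The promoters of the 3 members that fell with IN10018 alone (KLF2, KLF4 and KLF6, described below) are shown because the same motif class, the GC box that SP and KLF proteins bind, recurs in them. Each is the 250 bases before a RefSeq transcript start on GRCh38.p14, written 5′ to 3′ on the strand of the gene, with every GC box (GGGCGG on either strand) in capitals. KLF2 lies on the plus strand at chr19:16324576-16324825, KLF4 on the minus strand at chr9:107489770-107490019 and KLF6 on the minus strand at chr10:3785210-3785459.
KLF2: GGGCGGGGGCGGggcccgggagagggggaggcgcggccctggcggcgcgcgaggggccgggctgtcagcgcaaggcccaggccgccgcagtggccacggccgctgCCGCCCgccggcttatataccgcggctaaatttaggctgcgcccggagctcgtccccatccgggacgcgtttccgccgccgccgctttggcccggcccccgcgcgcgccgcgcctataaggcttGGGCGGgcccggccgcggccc
KLF4: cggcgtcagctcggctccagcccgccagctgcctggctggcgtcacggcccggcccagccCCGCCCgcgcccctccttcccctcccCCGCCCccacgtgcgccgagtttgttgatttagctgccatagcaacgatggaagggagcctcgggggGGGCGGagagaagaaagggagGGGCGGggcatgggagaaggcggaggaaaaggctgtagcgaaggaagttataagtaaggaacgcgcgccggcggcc
KLF6: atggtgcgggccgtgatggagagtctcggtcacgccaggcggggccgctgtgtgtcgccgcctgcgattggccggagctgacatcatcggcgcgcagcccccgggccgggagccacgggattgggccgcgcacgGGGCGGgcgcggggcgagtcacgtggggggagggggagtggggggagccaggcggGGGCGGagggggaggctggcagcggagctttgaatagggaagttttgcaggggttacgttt
The KLF2 and KLF4 stretches hold 4 GC boxes each and the KLF6 stretch holds 2. None of the 3 holds a CACCC box (CACCC on either strand). Start windows were found for 8 of the 10 members, 13 windows in all because KLF5, KLF7 and KLF11 have several. A GC box stood in 8 of these 13 windows and a CACCC box in 6 of 13, against 42.6% and 54.7% of the 35116 RefSeq windows of the same length. Members not called with IN10018 also had windows with GC boxes: KLF5 (2 boxes), KLF7 (4), KLF11 (2 and 6) and KLF13 (3). The motif is thus not particular to the 3 members shown. The single KLF9 window held neither motif. A match describes letters in the window and is not evidence of binding.

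Libraries held 13691844 to 20489708 reads in genes. They were scaled by TMM (trimmed mean of M-values), and levels below are CPM, the read counts relative to scaled library size. Crizotinib library 2 differed from the others of its group. Its score on the leading principal component of all tested genes, which held 67.2% of the variance, was 57.8, against -4.61 and 10.3 for the other crizotinib libraries and 37.8 to 91.4 for the combination libraries. Mitochondrially encoded transcripts took 5.21% of its reads, against 13.3% and 9.46% in the other crizotinib libraries, 4.28 to 6.99% with the combination and 11 to 12.7% with IN10018 and in control. Of the epithelial markers, KRT8 and KRT18 were abundant and EPCAM averaged 18.6 ± 2.78 CPM in control cells (SD, n = 3), whereas KRT19 had no read in any library. Summed epithelial markers (5 of 7 tested) ran from 2360 to 3590 CPM with the combination, 1800 to 3140 CPM with crizotinib, 1680 to 1850 CPM with IN10018 and 1980 to 2110 CPM in control. Summed adipocyte markers, checked because the description label of all 12 libraries mentions adipogenic differentiation, ran from 128 to 151, 106 to 141, 102 to 109 and 108 to 119 CPM in the same group order (4 of 7 tested). ADIPOQ had no read and LEP at most 1 read in any library, whereas FABP4 averaged 112 ± 15, 90.2 ± 23.9, 65 ± 4.7 and 71.3 ± 4.6 CPM and PPARG 20.3 ± 2.76, 28.3 ± 5.85, 37.2 ± 1.16 and 39.2 ± 1.38 CPM in that order (SD, n = 3 each). Summed endothelial markers (2 of 3 tested) ran from 33.9 to 41.3, 22.9 to 27, 23.5 to 25.3 and 18.1 to 21.9 CPM. The tested ones went apart, with PECAM1 at 27.1 ± 4.22 CPM with the combination and 6.51 ± 0.165 CPM in control. CDH5 was at 9.44 ± 0.121 CPM with the combination and 13.6 ± 1.69 CPM in control (SD, n = 3 each). Summed leukocyte markers (1 of 4 tested, CD14) ran from 28.5 to 33.7, 28.5 to 33, 17.7 to 20.5 and 19.1 to 23.6 CPM, and fibroblast markers (4 of 5 tested) from 5.51 to 7.02, 5.45 to 7.31, 5.13 to 6.07 and 4.41 to 5.64 CPM, in the same order. The part of these differences in the KLF results was not tested.

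Corrected for exon length, KLF5 was the most abundant member in every group, at 30.3 ± 5.64, 36.2 ± 5.64, 42.8 ± 1.09 and 51.1 ± 1.47 CPM per kb with the combination, with crizotinib, with IN10018 and in control (SD, n = 3 each). KLF6 came next in every group, and KLF2, KLF4 and KLF9 were the 3 lowest. In control cells KLF5 supplied 36.5 ± 1.06% and KLF6 25.8 ± 2.24% of the level per kb summed over the 10 genes. That sum was 78.3 ± 8.94 CPM per kb with the combination, 89.7 ± 9.12 with crizotinib, 105 ± 1.46 with IN10018 and 140 ± 3.22 in control. Sums of the treated libraries, from 69.7 to 106 CPM per kb, all lay below those of the control libraries, from 138 to 144 CPM per kb. The family thus made up a smaller part of the transcriptome in each treated group, and the members contributed to this in different ways, as the plot of levels by library shows.

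**Figure D1:**
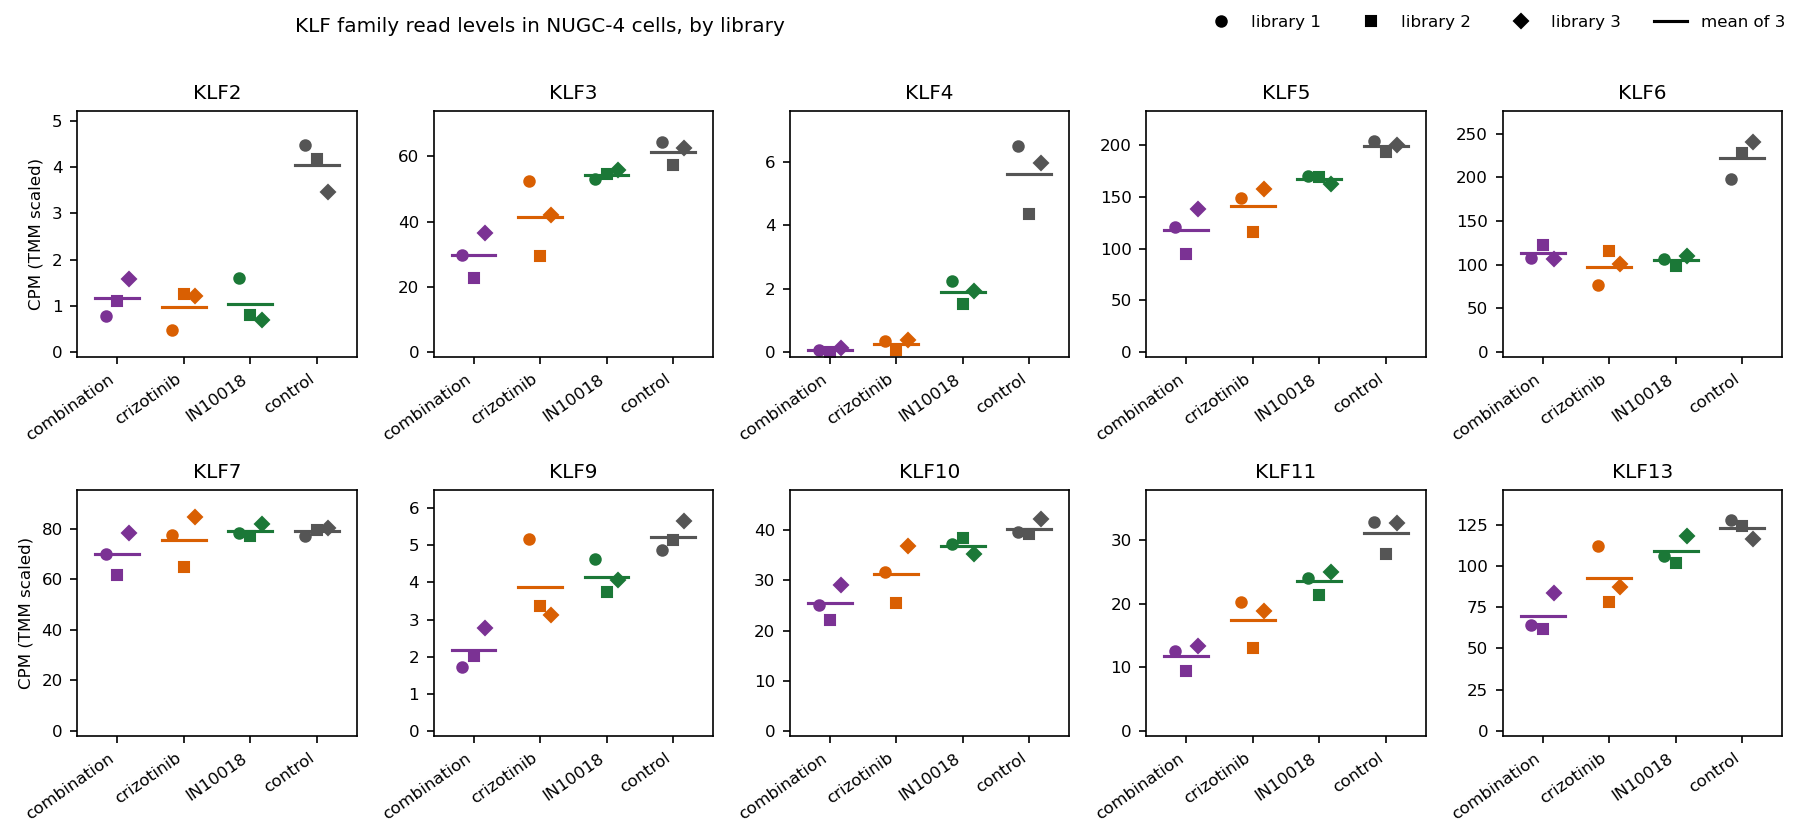
Level of each KLF gene in every library, in TMM-scaled CPM on a linear axis from 0; points are libraries, coded by replicate number, and lines are means of 3. KLF2 and KLF6 sit at 1 lower level under all 3 treatments, KLF4 steps down to almost no reads, KLF7 overlaps between all groups, and the others are lowest with the combination.

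KLF2 and KLF6 fell with either drug alone and with both, to much the same level each time. KLF2, known from endothelial cells and quiescent T cells, had 0.773, 1.11 and 1.59 CPM with the combination, 0.474, 1.26 and 1.21 CPM with crizotinib, 1.61, 0.808 and 0.689 CPM with IN10018, and 4.49, 4.17 and 3.46 CPM in control. The 3 treated groups overlapped one another, and every treated library lay below every control library. The level is low, with 8 to 26 reads in each treated library and 60 to 69 in each control library. KLF6, a widely expressed early-response factor described as a tumour suppressor, had 108, 123 and 107 CPM with the combination, 76.5, 116 and 101 CPM with crizotinib, 106, 99 and 110 CPM with IN10018, and 198, 228 and 240 CPM in control. Its treated groups likewise overlapped and all lay below control, here with over 1000 reads in every library. Each library is a mixture of cells, so a lower level per cell and a smaller share of cells expressing the gene cannot be told apart.

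KLF4, one of the factors used for reprogramming to pluripotency, changed most and in steps. It had 1, 0 and 2 reads with the combination, 6, 1 and 6 with crizotinib, 36, 30 and 28 with IN10018, and 87, 72 and 112 in control. In scaled units the means were 0.0606 ± 0.0612, 0.265 ± 0.18, 1.89 ± 0.356 and 5.61 ± 1.12 CPM (SD, n = 3 each). Crizotinib lay below IN10018 and IN10018 below control with no overlap, while crizotinib and the combination overlapped. From summed reads and library sizes, the combination held 0.0113 of the control level (95% exact interval 0.00232 to 0.0335), crizotinib 0.0466 (0.0245 to 0.0811) and IN10018 0.335 (0.262 to 0.425). Such intervals cover counting error only.

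KLF5, the member known from proliferating gut epithelium and gastric cancer, moved less but on many more reads. Its levels were 121, 94.5 and 138 CPM with the combination, 149, 116 and 158 CPM with crizotinib, 170, 169 and 162 CPM with IN10018, and 204, 193 and 200 CPM in control. IN10018 lay below control and crizotinib below IN10018 without overlap, and the combination overlapped crizotinib. KLF7, best known from neuronal development, showed the smallest differences between group means relative to its level: 70.1 ± 8.14, 75.7 ± 9.9, 79.1 ± 2.34 and 79.1 ± 1.63 CPM with the combination, with crizotinib, with IN10018 and in control (SD, n = 3 each), with overlap between neighbouring groups.

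The repressor-type members, like KLF4 and KLF5, had their lowest mean with the combination. KLF3, the CtBP-binding repressor, had 29.9, 22.7 and 36.6 CPM with the combination, 52.6, 29.6 and 41.9 CPM with crizotinib, 53, 54.5 and 55.8 CPM with IN10018, and 64.4, 57.4 and 62.6 CPM in control. KLF11, a TGF-beta-inducible factor that binds SIN3A, had 12.5, 9.45 and 13.3 CPM with the combination, 20.2, 13 and 18.9 CPM with crizotinib, 24, 21.4 and 25 CPM with IN10018, and 32.9, 27.8 and 32.7 CPM in control. For both genes only the combination and crizotinib overlapped among neighbours, and in both of these groups library 2 was the lowest. KLF9, a gene known to be induced by glucocorticoids and thyroid hormone, had 1.73, 2.02 and 2.76 CPM with the combination, 5.16, 3.37 and 3.12 CPM with crizotinib, 4.64, 3.74 and 4.07 CPM with IN10018, and 4.86, 5.14 and 5.64 CPM in control. It was the member whose combination libraries all lay below all crizotinib libraries. KLF10, the other TGF-beta-inducible member, averaged 25.5 ± 3.46, 31.3 ± 5.64, 36.9 ± 1.68 and 40.3 ± 1.63 CPM, and KLF13, known as an activator of the chemokine gene CCL5 in T cells, averaged 69.8 ± 11.9, 92.6 ± 17.7, 109 ± 8.23 and 123 ± 5.92 CPM in the same group order (SD, n = 3 each). Both were lowest with the combination, and their neighbouring groups overlapped except KLF10 between IN10018 and control.

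With IN10018 against control, 3 of the 10 members fell by the edgeR quasi-likelihood test (Benjamini-Hochberg adjusted p under 0.05 over all 17096 genes), where 0.158% of all genes fell and 0.503% changed either way. KLF2 changed by -1.95 ± 0.35 on the log2 scale (SE, adjusted p = 0.025 in edgeR), KLF4 by -1.57 ± 0.29 (0.028) and KLF6 by -1.08 ± 0.14 (0.0039). Of the 5 activators, KLF5 (edgeR adjusted p = 0.54) and KLF7 (1) did not pass, and no test compared the classes. The SE is the size of the log2 change divided by the square root of the F statistic. The next member was KLF11 at -0.41 ± 0.16, with an edgeR adjusted p of 0.37. In 8 of 10 members every IN10018 library lay below every control library, as was so for 18.9% of all tested genes. The median over the members was -0.29, against -0.02 over all tested genes. KLF2 and KLF4 rest on few reads, and each lost its call in 5 of the 12 fits that left out 1 library, with log2 changes between -2.41 and -1.73 and between -1.73 and -1.43 over all settings; KLF6 lost its call only without IN10018 library 2, among the settings run. Without control library 1, control library 3 or IN10018 library 3 the count was 1, where 0.0903%, 0.0795% and 0.294% of all genes passed. The count was 0 without IN10018 library 2, where 0.0399% of all genes passed.

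With crizotinib against control, 8 of 10 members fell, where 17.6% of all genes fell and 20% rose. In 8 members all crizotinib libraries lay below all control libraries, as in 25.1% of all genes. The fall of KLF4 was deepest at -4.39 ± 0.39 (edgeR adjusted p = 2.6e-05), followed by KLF2 at -2.03 ± 0.35 (0.0027), KLF6 at -1.18 ± 0.14 (0.00032) and KLF11 at -0.84 ± 0.17 (0.0041). KLF3, KLF5, KLF13 and KLF10 fell by less, with log2 changes of -0.57, -0.50, -0.40 and -0.37 and edgeR adjusted p of 0.028, 0.015, 0.039 and 0.046. KLF9 at -0.43 ± 0.21 (0.12) and KLF7 at -0.06 ± 0.11 (0.68) did not pass, and the sign of KLF7 turned to 0.06 when libraries were scaled by total reads and to 0.25, then called higher, under an offset for GC content and transcript length. The median was -0.53 over the members and 0.08 over all tested genes. The smaller calls were the less stable ones. Of the 10, 5 passed without crizotinib library 2, 5 without IN10018 library 3 and 4 without control library 1. In those fits 20.9%, 32% and 17.7% of all genes passed, against 37.6% with all 12 libraries and TMM scaling. With scaling by total reads 5 members and 39.6% of all genes passed. KLF2, KLF4, KLF6 and KLF11 passed in all 22 alternative settings.

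With the combination against control, 9 of 10 members fell, where 29.1% of all genes fell and 33.7% rose. The same 9 lay below control in every library, as did 33.2% of all genes. KLF4 changed by -6.31 ± 0.5 (edgeR adjusted p = 4.4e-06), a fitted value that depends on how 3 reads in 3 libraries are moderated. KLF2 changed by -1.79 ± 0.35, KLF11 by -1.40 ± 0.17, KLF9 by -1.27 ± 0.23, KLF3 by -1.05 ± 0.19 and KLF6 by -0.98 ± 0.14, all with edgeR adjusted p of 0.00063 or lower. KLF13, KLF5 and KLF10 changed by -0.81, -0.75 and -0.66. KLF7 was the exception, at -0.17 ± 0.11 (0.2), and turned to 0.33, called higher, under the offset for GC content and length. That offset also reduced the change of KLF3 to -0.50 and deepened that of KLF2 to -2.75. The median was -1.01 over the members and 0.10 over all tested genes. These 9 calls held in all 22 alternative settings. The 3 comparisons use the same control libraries and are not independent of each other; the plot of changes against control sets them side by side.

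**Figure D2:**
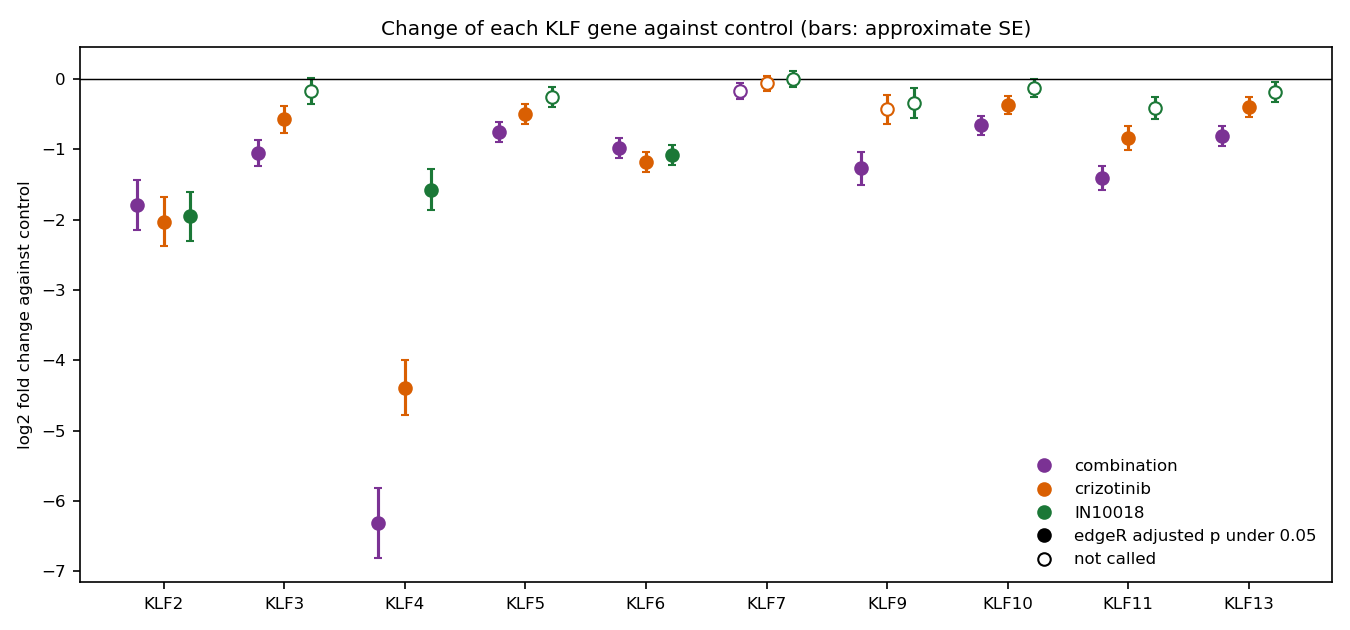
Log2 fold change of each KLF gene against control with the combination, crizotinib and IN10018, with bars of ± 1 approximate SE; filled points have an edgeR adjusted p under 0.05. KLF2 and KLF6 have like values under the 3 treatments, KLF4 runs to -6.31 with the combination, and no point is above 0.

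Adding crizotinib to IN10018 was compared directly. Of the 10 members 7 were lower with the combination than with IN10018 alone, where 27.5% of all genes were lower and 29.7% higher. In the same 7 every combination library lay below every IN10018 library, as in 32.8% of all tested genes. KLF4 differed by -4.74 ± 0.57 (edgeR adjusted p = 3e-04), KLF11 by -0.99 ± 0.17 (0.00053), KLF9 by -0.93 ± 0.23 (0.0039) and KLF3 by -0.87 ± 0.19 (0.0017). KLF13, KLF10 and KLF5 differed by -0.64, -0.53 and -0.50. Of the 3 members that every treatment lowered, KLF4 passed here, while KLF6 and KLF2 did not: KLF6 differed by 0.10 ± 0.14 (0.55) and KLF2 by 0.16 ± 0.40 (0.74), and KLF7 by -0.17 ± 0.11 (0.2), which the GC and length offset turned to 0.30, called higher. In reads, KLF2 with the combination was 1.12 times its IN10018 level (95% exact interval 0.755 to 1.67). The sign of the KLF2 difference is not settled, since an offset for GC content and length gave -0.82.

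Adding IN10018 to crizotinib gave no member call in the main test. No member passed in that edgeR test, DESeq2 or limma-voom, where 0.0117% of all genes passed in edgeR. Of the 10 members, 5 had an unadjusted edgeR p under 0.05, as had 21.6% of all genes. In 1 member, KLF9, every combination library lay below every crizotinib library, as in 4.77% of all tested genes. The estimates for the 5 members with a p under 0.05 were -1.92 ± 0.83 for KLF4, -0.84 ± 0.23 for KLF9, -0.56 ± 0.17 for KLF11, -0.47 ± 0.19 for KLF3 and -0.41 ± 0.14 for KLF13, with edgeR adjusted p between 0.21 and 0.22. This result depended on the settings. Without the filter on low counts, edgeR called KLF3, KLF9, KLF11 and KLF13 lower in all 12 libraries, where 4.89% of all genes passed. The result also turned on crizotinib library 2. In both the crizotinib and the combination group, library 2 was the lowest of the 3 for 7 members (KLF3, KLF4, KLF5, KLF7, KLF10, KLF11 and KLF13) and the highest for KLF6. Without crizotinib library 2, 8 of 10 members passed, while 32.3% of all genes did. KLF4, KLF9, KLF11, KLF3, KLF13, KLF10 and KLF5 were then lower with the combination, at -2.41, -0.94, -0.73, -0.67, -0.52, -0.42 and -0.38, and KLF6 was higher at 0.34 ± 0.13 (edgeR adjusted p = 0.046). Same-numbered libraries of these groups deviated together. A fit of only their 6 libraries with the replicate number as a block called 4 members lower (KLF3, KLF9, KLF11 and KLF13). That fit called 23.1% of all genes, with 11% lower. The block in all 12 libraries called no member and 0.55% of all genes.

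**Figure D3:**
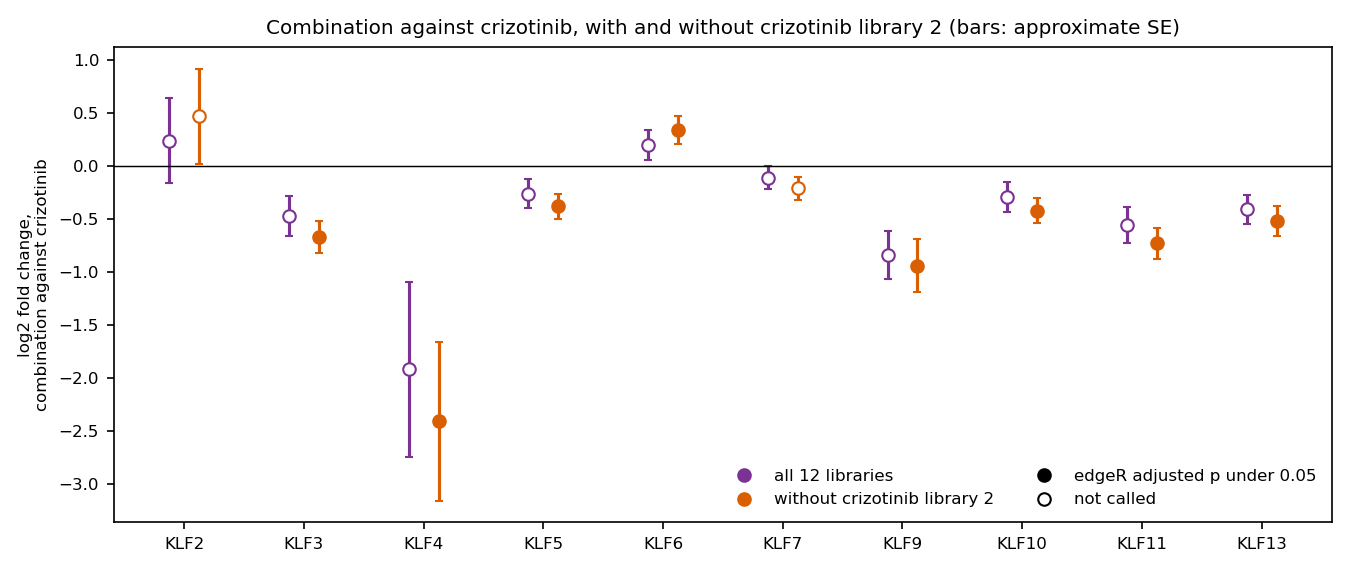
Log2 fold change of each KLF gene, combination against crizotinib, in all 12 libraries and without crizotinib library 2, with bars of ± 1 approximate SE; filled points have an edgeR adjusted p under 0.05. No point is filled with all 12 libraries and 8 are filled without crizotinib library 2.

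Between the single drugs, KLF4 was the member that passed, lower with crizotinib than with IN10018 by -2.82 ± 0.43 (edgeR adjusted p = 0.009), where 10.3% of all genes were lower and 11.5% higher. In 4 members (KLF3, KLF4, KLF5 and KLF11) crizotinib lay below IN10018 in every library, as in 22.3% of all genes. KLF4 did not pass without IN10018 library 1 or in a fit of the 6 libraries compared, where 0.074% and 0.0249% of all genes passed. Without crizotinib library 1, 4 members passed, where 36.4% of all genes did. Without combination library 2, 2 members passed, where 30.2% of all genes did. KLF11 at -0.43 ± 0.17 (0.071) and KLF3 at -0.40 ± 0.19 (0.13) came next. KLF2 at -0.08 ± 0.41 and KLF6 at -0.10 ± 0.14 did not pass, and without crizotinib library 1 they were at 0.24 and 0.04.

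The interaction asks whether the combination differs from the sum of the single-drug changes on the log2 scale. KLF6 passed, with the combination at -0.98 against a sum of -2.26, a difference of 1.28 ± 0.19 (edgeR adjusted p = 0.022), where 0.0585% of all genes passed in that direction and 0.0117% in the other. KLF2 had a larger difference of 2.20 ± 0.54 that did not pass (-1.79 against a sum of -3.99, edgeR adjusted p = 0.24). The other 8 members did not pass, with differences between -0.50 for KLF9 and 0.00 for KLF5. KLF4 was at -6.31 with the combination against a sum of -5.96. The KLF6 difference stayed between 1.10 and 1.43 in all 21 settings, but its adjusted p exceeded the threshold in 10 of the 12 fits that left out 1 library (0.05 to 0.14). KLF2 passed in DESeq2 (2.25, adjusted p = 0.04) and without crizotinib library 2.

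**Figure D4:**
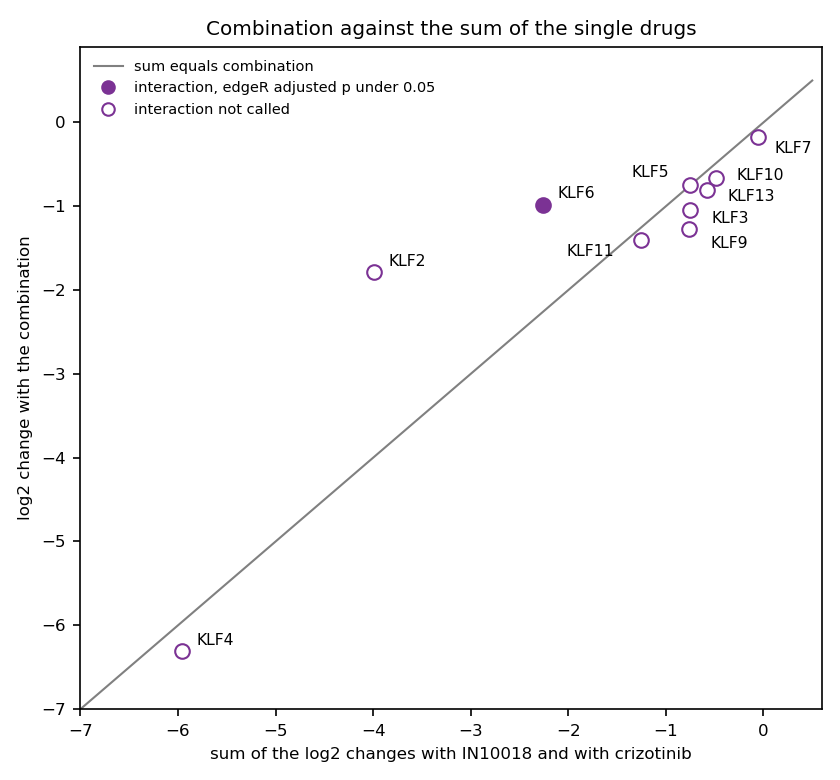
Log2 change with the combination (vertical axis) against the sum of the log2 changes with IN10018 and with crizotinib (horizontal axis) for the 10 KLF genes; the line marks equality and the filled point an interaction with edgeR adjusted p under 0.05. KLF6 and KLF2 lie 1.28 and 2.20 above the line and the other members lie close to it.

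Related genes were read as lists. Of the 8 other KLF genes listed, 3 passed the filter. KLF12, a CtBP-binding repressor like KLF3, fell by 1.37 on the log2 scale with the combination and by 0.83 with crizotinib (edgeR adjusted p = 3e-04 and 0.014), with mean levels of 4.91, 7.15, 11.8 and 12.7 CPM with the combination, crizotinib, IN10018 and control. The crizotinib call of KLF12 was lost under the offset for GC content and length (-0.40, edgeR adjusted p = 0.055) and without control library 1 (-0.76, 0.059). KLF16, of the SIN3A-binding class, ran the other way against IN10018, at 1.02 ± 0.24 higher with the combination (edgeR adjusted p = 0.0028), but the offset for GC content and length gave -0.03 and no call. Against control KLF16 was at 0.55 ± 0.24 with the combination (edgeR adjusted p = 0.055), which that offset turned to -0.47, called lower. Of the SP factors 5 were tested: SP1, SP2, SP3 and SP4 fell with the combination against control, SP3 and SP4 with crizotinib (29.1% and 17.6% of all genes). With IN10018 none of them passed in edgeR, DESeq2 or limma-voom. None had an unadjusted edgeR p under 0.05 there, against 11% of all genes. The SP1 call was lost under the offset (-0.01) and with library totals (-0.29). SP4 changed most, by -1.30 ± 0.23 with the combination (edgeR adjusted p = 0.00033). SP6 did not pass in any comparison. The list median with the combination was -0.47, against 0.10 over all tested genes.

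Of 15 cofactors and ubiquitin ligases of KLF proteins, 6 fell and 2 rose with the combination against control (29.1% and 33.7% of all genes), and 4 fell and 1 rose with crizotinib (17.6% and 20%). With IN10018 none passed in edgeR, DESeq2 or limma-voom, and 0 had an unadjusted edgeR p under 0.05, against 11% of all genes. The corepressor genes went apart. SIN3A, the partner of the KLF9 class, averaged 59.9 ± 13.1 CPM with the combination, 81.7 ± 8.35 with crizotinib, 99.2 ± 0.795 with IN10018 and 116 ± 2.81 in control, and fell by 0.95 on the log2 scale with the combination (edgeR adjusted p = 0.00012). CTBP1, a partner of KLF3, averaged 104 ± 21.1, 77.3 ± 17, 53.2 ± 1.37 and 49.1 ± 1.31 CPM in that order and rose by 1.09 ± 0.16 with the combination (edgeR adjusted p = 0.00012). The related genes did not follow them. SIN3B averaged 91.5 ± 10.5 CPM with the combination and 76.2 ± 6.19 in control, and CTBP2 135 ± 5.23 and 139 ± 5.37. HDAC1, HDAC2, HDAC3 and NCOR1 averaged 82, 148, 57 and 227 CPM with the combination and 74.2, 162, 56.5 and 252 CPM in control. The acetyltransferase genes EP300, CREBBP and KAT2B averaged 99.5, 91.3 and 13.3 CPM with the combination and 163, 134 and 30.8 CPM in control. WWP1, a ubiquitin ligase that targets KLF5, fell by 0.69 with the combination and by 0.46 with crizotinib (edgeR adjusted p = 0.0011 and 0.025), which the offset reduced to -0.07 and -0.09, not called, and the crizotinib call was also lost with library totals and when crizotinib library 2, or library 1 or 3 of the control cells, was left out (-0.49 to -0.33).

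The next list held regulators known to act upstream of KLF genes through ERK5, MEF2, SRF and CREB. Of 15 tested, 8 fell and 2 rose with the combination against control (29.1% and 33.7% of all genes) and 7 fell with crizotinib (17.6%). The offset for GC content and length left 8 lower and 0 higher with the combination, where 26.9% of all genes were lower and 28.1% higher. With IN10018 none passed in the same 3 tools, and again 0 had an unadjusted edgeR p under 0.05, against 11% of all genes. ELK3, a cofactor of SRF, fell by 1.08 and 0.70 with the combination and crizotinib (edgeR adjusted p = 6.5e-05 and 0.0036), and MRTFB, another, fell by 0.78 with crizotinib (edgeR adjusted p = 0.008). MAPK7, which encodes ERK5, did not pass in any comparison and was at -0.21 ± 0.15 with the combination. Of the 6 tested genes around the glucocorticoid receptor, 5 fell and 1 was called higher with the combination (29.1% and 33.7% of all genes) and with crizotinib (17.6% and 20%), and PER1 fell with IN10018, by 1.14 (edgeR adjusted p = 0.025). This call was lost without control library 2 or 3, without any 1 of the IN10018 libraries and without crizotinib library 3, at log2 changes between -1.21 and -0.91. PER1 lay below control in every treated library, at 3.61 ± 0.563, 2.95 ± 0.121, 2.87 ± 0.209 and 6.28 ± 1.75 CPM with the combination, crizotinib, IN10018 and control. DUSP1, a phosphatase of MAP kinases, fell by 1.74 with the combination and by 1.32 with crizotinib, and TSC22D3 was the gene called higher. That TSC22D3 call, at 0.34 ± 0.14 with the combination and 0.38 ± 0.14 with crizotinib (edgeR adjusted p = 0.046 and 0.044), was lost in DESeq2 (0.26 and 0.31, adjusted p = 0.2 and 0.12), under the offset and in most fits that left out 1 library.

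Of 10 tested genes of the TGF-beta pathway, 8 fell and 1 rose with the combination against control (29.1% and 33.7% of all genes), and 6 fell with crizotinib (17.6%). Of 10 tested genes described as KLF targets, 4 fell and 2 rose with the combination and 3 fell and 2 rose with crizotinib, close to the shares of all genes given above (29.1% and 33.7%, 17.6% and 20%). None of them passed with IN10018 in edgeR, DESeq2 or limma-voom, where 3 had an unadjusted edgeR p under 0.05, as had 11% of all genes. ODC1, a polyamine gene that KLF4 is described as repressing, fell by 1.00 with the combination (edgeR adjusted p = 3.9e-05). TAGLN, a smooth muscle gene that KLF4 is described as repressing, rose by 1.96 ± 0.24 (6.9e-05). These 2 genes moved in opposite directions. Between the combination and crizotinib no listed gene passed in the main edgeR test, DESeq2 or limma-voom. In each list 1 to 4 genes had an unadjusted edgeR p under 0.05, as had 21.6% of all genes. Without crizotinib library 2 every list had calls, where 32.3% of all genes did: 7 of the upstream regulators lower, 5 cofactors lower and 1 higher, 4 TGF-beta genes lower and 1 higher, 2 targets lower and 3 higher, 3 SP factors, 2 genes around the glucocorticoid receptor and 1 other KLF gene lower. Under the offset for GC content and length, fewer genes of 2 lists fell with the combination against control, 3 around the glucocorticoid receptor and 5 of the TGF-beta pathway with none rising, and 5 cofactor genes fell and 5 rose. In that fit 26.9% of all genes fell and 28.1% rose.

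Across the 12 libraries pairs of members differed in how closely their log2 CPM ran together. KLF3 and KLF11 correlated at 0.97, KLF5 and KLF10 at 0.97 and KLF4 and KLF11 at 0.97, while KLF2 and KLF6 correlated with each other at 0.91. KLF7 was less close to some, at 0.85 with KLF10, 0.65 with KLF4 and 0.6 with KLF9. Within groups KLF3 and KLF6 ran in opposite directions (r = -0.82), and KLF3 and KLF11 ran together (0.93). The within-group value for KLF2 and KLF6 was 0.46. These points share libraries, and treatment, depth and the position of crizotinib library 2 all enter them. The genes most like each member were taken among tested genes with a mean log2 CPM of at least 1. They were KLHL13 and DHX40 for KLF3 (r = 0.997 and 0.996), FBXO45 and MCL1 for KLF4 (0.992 and 0.99), ZFP36L1 and MYADM for KLF6 (0.952 and 0.951), GARS1 for KLF2 (0.933) and MORF4L1 for KLF11 (0.996). KLF6 itself was among the 3 genes most like KLF2 (0.911).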

How the data were processed

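Read counts per gene in 12 libraries were used as deposited. The authors made this count table from trimmed and aligned reads. Per the submitters' processing notes, the tools were Trimmomatic, FastQC, HISAT2, featureCounts and DESeq2, on build hg38 (GRCh38), and versions and the strand setting are not given in the sources used here. Per the labels' protocols, the libraries were directional and made from TRIzol-extracted RNA. The matrix was not normalized.

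The fit used edgeR 4.0.16 in R 4.3.3: TMM scaling, filterByExpr by group (minimum count 10), a robust quasi-likelihood F test over all 12 libraries, and Benjamini-Hochberg adjustment over 17096 genes with a threshold of 0.05. Alternatives were other scalings and filters, DESeq2 1.42.0, limma-voom (limma 3.58.1), a replicate block, fewer libraries, and, chosen after seeing the data, a GC and length offset and a block within 6 libraries. Exon lengths came from GENCODE 29, promoters from RefSeq (GRCh38.p14). The fit was tested on simulated data, with counts drawn independently for each library. They held no shift of a whole library and no pairing, so that check does not cover the deviations between libraries described here. The members, lists and tests were chosen with earlier results of these data known. From the lists, genes were named out of the up to 2 called genes with the smallest p per comparison, but not all of these are named. SP1, SP2, SP6, WWP1, MAPK7 and TSC22D3 were named after their values were seen. Other genes, among them SIN3B, CTBP2, HDAC1, HDAC2, HDAC3, NCOR1, EP300 and KAT2B, were also named outside that rule. The result of 1 listed gene is not reported here.

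Replicates of 1 group differed by more than sampling noise (chi-square per degree of freedom 2.32 to 104). Same-numbered libraries deviated together in the combination and crizotinib groups (r = 0.218, 0.624 and 0.275), so the numbers may pair these groups. The main test used no pairing, and the number entered as a block only in alternative fits. Combination library 3 and crizotinib library 1, of unlike number, also deviated together (r = 0.422). A pairing by number is read from the data, since the labels do not say what a number marks. Depth of 13691844 to 20489708 reads makes KLF2, KLF4 and KLF9 the least precise members. Reads of overlapping transcripts (KLF7-IT1 at 1.44% and KLF3-AS1 at 0.531% of their partner's reads) and of KLF pseudogenes cannot be fully separated.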

Additional observations from a re-analysis of the deposited data

Results flagged for a closer look

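KLF6 was singled out because the change with IN10018 differed by whether crizotinib was present, and the difference was itself tested. The KLF6 difference with IN10018 was 0.20 ± 0.14 on the log2 scale in cells with crizotinib and -1.08 ± 0.14 in cells without it, an interaction of 1.28 ± 0.19 (edgeR adjusted p = 0.022). All 3 treated groups lay below control without overlap. The estimate depends on the log2 scale, on which equal folds add up.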

How the results depend on the processing

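Counts of members called with the combination against control (9) and against IN10018 (7) were within 1.5 times of these under all alternatives run. Shares in brackets are of all genes called in the same fit. For IN10018 against control the count of 3 (0.503%) was 5 in a fit of the groups compared (13.9%). It was 5 without replicate 2 of both crizotinib and combination (5.01%). Leaving out 1 library gave 0 to 3 (0.0399% to 1.28%). For crizotinib against control 8 (37.6%) became 5 with library totals (39.6%), and 4 to 8 without 1 library (17.7% to 45.4%). For combination against crizotinib 0 (0.0117%) became 4 without the filter (4.89%) and 6 without replicate 2 of both (25.2%). It was 4 with the replicate block in 6 libraries (23.1%) and 1 with the block and the GC offset (2.35%). Without 1 library it was 0 to 8 (0.0113% to 32.3%). For crizotinib against IN10018 1 (21.9%) became 3 without the filter (13.1%) and 3 with the replicate block (33.2%). It was 0 in the groups compared (0.0249%), 2 in DESeq2 (12.9%), and 0 to 4 without 1 library (0.074% to 36.4%). For the interaction 1 (0.0702%) became 2 without the filter (0.838%), in DESeq2 (0.177%) and without replicate 2 of both (11.1%). Without 1 library it was 0 to 2 (0.0113% to 4.61%). The replicate block in 12 libraries changed no other count by over 1.5 times. The cause of these differences was not tested.

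Signs that turned were of members not called with all libraries and settings. With the GC and length offset, KLF7 was 0.25 and 0.33 with crizotinib and combination against control and 0.30 for combination against IN10018 (all called), 0.08 against crizotinib (0.09 with the block), 0.22 for crizotinib against IN10018 and 0.05 for the interaction. KLF7 with crizotinib against control was 0.06 with library totals, 0.04 without replicate 2 of both and -0.13 to 0.03 without 1 library. The offset gave KLF2 -0.82 for combination against IN10018 (-0.17 to 0.61 without 1 library) and -0.13 against crizotinib (-0.15 with the block; -0.10 to 0.47 without 1 library). Combination against IN10018 for KLF6 ran from -0.01 to 0.13 without 1 library. For crizotinib against IN10018, leaving out 1 library gave -0.31 to 0.37 for KLF2, -0.25 to 0.04 for KLF6, -0.16 to 0.04 for KLF7 and -0.36 to 0.03 for KLF9; without replicate 2 of both KLF7 was 0.04 and KLF9 0.01, and the offset gave 0.06 for KLF6 and KLF9. The KLF4 interaction ran from -1.23 to 0.09 without 1 library.

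Library totals moved the median of all genes to 0.274, 0.208 and 0.151 (0.095, 0.084 and 0.038 with TMM) for the combination and crizotinib against control and the combination against IN10018. Depth limits KLF4, with 3 reads in all combination libraries.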

Other observations

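The remaining KLF genes had few reads or none. KLF1 had 0 reads in all 12 libraries, KLF8 had 1, and KLF15 and KLF18 had 2 each. KLF14 had 76 reads in all, 2 to 13 per library, and did not pass the filter. KLF17 had 74 reads in all and passed the filter without a call in any comparison. Of the KLF pseudogenes, KLF3P1 held 102 reads, KLF4P1 29 and KLF17P1 13, and the others listed held 0.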
